A study of Homo sapiens with 22 samples.

Results

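Solute carrier (SLC) genes were described here by the H3R2me2a regions nearest to them in NT2/D1, an established pluripotent line of human embryonal carcinoma. H3R2me2a is the asymmetric dimethylation of arginine 2 of histone H3, which the enzyme PRMT6 deposits. The members were all promoter-list and enhancer-list regions whose nearest transcript carried an SLC or SLCO name with a family number, letters and a member number and no hyphen, so that antisense genes were left out. There were 92 such regions of 8819, carrying 74 of 6697 gene names. Of the 74 names, 70 are solute carriers (86 regions). The pseudogenes SLC7A5P1, SLC7A15P and SLC25A15P4 hold 5 regions, and SLC7A6OS, a gene opposite SLC7A6 that encodes no solute carrier, holds 1.

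The series has 22 samples from control cells and cells deleted for PRMT6, made with CRISPR/Cas9, and the 5 region lists come from 2 of them. These were the H3R2me2a libraries, made with a rat monoclonal antibody, of CRISPR control cells kept without all-trans retinoic acid (ATRA) and of CRISPR control cells given 1 µM ATRA for 3 days. Both groups were CRISPR/Cas9 controls and not PRMT6-deleted, there is 1 library in each, and the labels do not say whether the control line is 1 clone. The other 20 samples were not analysed here. Clusters I and II were deposited under the untreated library, and cluster III with the promoter and enhancer lists under the treated one. No source used here states the criteria that define the clusters and the 2 classes. Region lists hold no expression, so the identity of the cells could not be checked against marker levels.

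Solute carriers are membrane proteins that move sugars, amino acids, ions, nucleotides, metals, vitamins and drugs across the plasma membrane and the membranes of organelles. They are grouped into numbered families by sequence and substrate. Some, such as glucose and ADP/ATP carriers, serve most dividing cells, and others belong to kidney, liver, gut or brain. H3R2me2a has been studied as a mark that hinders trimethylation of the nearby lysine 4 at promoters and that also occurs at enhancers.

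The promoters below belong to SLC genes with promoter-class regions in start windows, and are shown as sequence near those starts. The sequence under the regions themselves was not read. They were the 3 highest cluster II genes by tagcount and the 3 highest cluster III genes by MACS tags among regions within 250 bp of the named start, with an entry in the RefSeq promoter table (GRCh38.p14). The table held an entry within 100 bp of the named start for 28 of the 51 promoter-class start-window regions. Some regions with more tags were left out by these limits, among them SLC2A3 (200 tagcount) and SLC25A6 (173 MACS tags). Each runs 5′ to 3′ on the gene's strand, from 250 bases before the RefSeq start. Capitals mark GGGCGG (the core of an SP1 site) and CCAAT (the NF-Y box), searched on both strands. GRCh38 positions are given for the sequences and hg19 positions for the regions, and the builds were not converted.
SLC4A2, chr7:151057950-151058249, plus strand: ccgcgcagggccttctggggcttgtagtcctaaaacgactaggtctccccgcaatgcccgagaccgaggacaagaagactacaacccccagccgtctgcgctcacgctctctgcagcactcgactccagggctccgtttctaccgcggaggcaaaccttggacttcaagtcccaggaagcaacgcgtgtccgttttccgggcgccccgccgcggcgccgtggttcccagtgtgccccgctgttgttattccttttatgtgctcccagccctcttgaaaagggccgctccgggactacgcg
SLC35B4, chr7:134316881-134317180, minus strand: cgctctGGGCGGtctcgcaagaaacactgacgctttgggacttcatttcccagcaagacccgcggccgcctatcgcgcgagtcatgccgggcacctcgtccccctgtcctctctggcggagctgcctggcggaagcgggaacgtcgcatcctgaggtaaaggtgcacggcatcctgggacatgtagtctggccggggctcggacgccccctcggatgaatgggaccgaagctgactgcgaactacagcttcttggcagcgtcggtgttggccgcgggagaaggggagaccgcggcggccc
SLC38A7, chr16:58684721-58685020, minus strand: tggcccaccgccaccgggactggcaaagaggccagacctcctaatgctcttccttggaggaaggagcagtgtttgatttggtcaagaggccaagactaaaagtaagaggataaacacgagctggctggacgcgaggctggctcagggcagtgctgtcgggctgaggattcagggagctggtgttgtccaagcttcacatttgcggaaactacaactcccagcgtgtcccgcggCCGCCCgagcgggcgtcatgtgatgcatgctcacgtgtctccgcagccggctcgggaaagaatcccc
SLC39A7, chr6:33200617-33200916, plus strand: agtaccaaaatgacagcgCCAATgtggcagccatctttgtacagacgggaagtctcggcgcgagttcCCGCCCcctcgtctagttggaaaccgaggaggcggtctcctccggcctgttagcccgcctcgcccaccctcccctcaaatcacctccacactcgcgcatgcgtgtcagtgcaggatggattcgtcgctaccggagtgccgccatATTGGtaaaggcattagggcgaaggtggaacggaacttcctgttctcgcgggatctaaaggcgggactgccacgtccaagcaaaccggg
SLC7A6OS, chr16:68310897-68311196, minus strand: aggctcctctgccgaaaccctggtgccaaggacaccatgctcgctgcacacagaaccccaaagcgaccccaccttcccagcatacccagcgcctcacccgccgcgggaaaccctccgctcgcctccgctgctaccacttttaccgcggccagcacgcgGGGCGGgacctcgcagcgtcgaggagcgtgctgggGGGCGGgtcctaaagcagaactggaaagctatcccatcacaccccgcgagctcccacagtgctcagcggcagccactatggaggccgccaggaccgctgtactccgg
SLC33A1, chr3:155854378-155854677, minus strand: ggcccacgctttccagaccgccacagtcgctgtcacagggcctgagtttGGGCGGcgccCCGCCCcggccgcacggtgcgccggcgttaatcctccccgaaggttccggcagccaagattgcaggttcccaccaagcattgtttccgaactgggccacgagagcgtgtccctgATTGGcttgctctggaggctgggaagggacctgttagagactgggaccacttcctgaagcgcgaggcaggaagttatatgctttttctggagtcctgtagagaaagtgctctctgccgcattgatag
These 6 windows held between 18 (SLC38A7) and 31 (SLC35B4) CG dinucleotides, with an observed to expected CpG ratio from 0.686 (SLC38A7) to 0.969 (SLC4A2). SLC4A2, at the start the authors named, held neither motif. SLC33A1 and SLC7A6OS held 2 GGGCGG each, and SLC39A7 held 2 CCAAT.

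**Figure D1:**
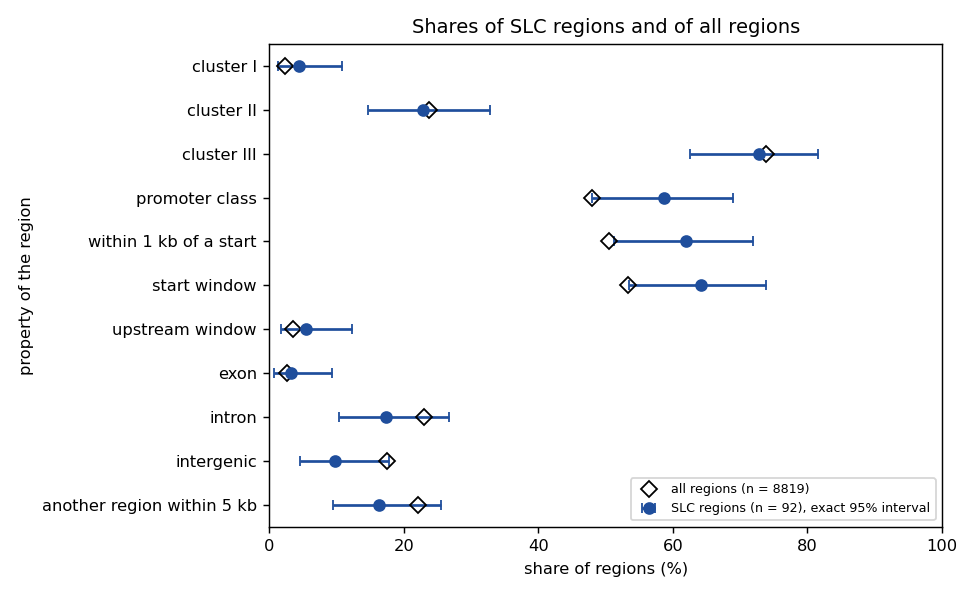
Share of regions (x axis, percent) with each property (y axis). Filled points are the 92 SLC regions with exact 95% intervals and open diamonds are all 8819 regions. Cluster shares lie close to the diamonds, and the shares within 1 kb of a start and in start windows lie to the right of them.

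The first question was where the mark lay at SLC genes. Most SLC regions were at transcript starts and in cluster III. Cluster III held 67 of 92 SLC regions (72.8%, exact Clopper-Pearson 95% interval 62.6 to 81.6), against 73.9% of all regions. Cluster II held 21 (22.8%, 14.7 to 32.8), against 23.8%. Cluster I held 4 (4.35%, 1.20 to 10.8), against 2.29%. Each cluster share of all regions lies inside the interval of the SLC share, so no difference in cluster makeup was detectable with this number of regions. There was 1 library per condition, so these intervals cover counting error only and no p-values were computed.

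By class, 54 of 92 SLC regions were in the promoter list (58.7%, 47.9 to 68.9), against 48.0% of all regions. Within 1 kb of a start lay 57 (62.0%, 51.2 to 71.9), against 50.5%, and the authors' start windows held 59 (64.1%, 53.5 to 73.9), against 53.3%. Both of the latter background shares fall just below the SLC intervals. Without chromosome 12 the share within 1 kb was 60.2% (48.9 to 70.8) against 51.2%, and the background was then inside the interval, as it was in 4 other settings given in the closing section. Of the 54 promoter-class SLC regions 51 lay in start windows (94.4%, 84.6 to 98.8), against 94.2%, and of the 38 enhancer-class ones 8 did (21.1%, 9.55 to 37.3), against 15.6%. Introns held 16 SLC regions (17.4%, 10.3 to 26.7), against 23.0% of all regions. Intergenic sequence held 9 (9.78%, 4.57 to 17.8), against 17.5%. Upstream windows held 5 (5.43%), against 3.53%, and exons 3 (3.26%), against 2.66%. The median distance to a start was 288 bp for SLC regions and 933 bp for all regions. Cluster II made up 17 of the 54 promoter-class regions (31.5%, 19.5 to 45.6), against 35.5%, and cluster III 37 (68.5%, 54.4 to 80.5), against 63.9%. Among the 38 enhancer-class regions cluster II had 4 (10.5%, 2.94 to 24.8), against 13.0%, and cluster III 30 (78.9%, 62.7 to 90.4), against 83.2%. Of the 21 SLC regions in cluster II, 17 were promoter class (81.0%, 58.1 to 94.6), against 71.6%. Median distances were 84.5 bp (52 to 159) for SLC promoter-class regions and 72 bp for all of that class, and 6690.5 bp (2324 to 12811) for SLC enhancer-class regions and 9824 bp for all of that class. Both background medians lie inside the SLC intervals.

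Counted by gene, 74 of the 394 protein-coding SLC genes in RefSeq were nearest to a region (18.8%, 15.0 to 23.0), against 22.5% of all protein-coding genes. This number equals the count of names but covers other genes, SLC7A6OS among them. The 3 pseudogenes drop out, and name matching put SLC35E2 and SLC35E2B, whose regions are separate on chromosome 1, under 1 current symbol. In their place stand 4 SLC genes that the authors name otherwise, HIAT1 (now SLC71A1), MFSD5 (SLC61A1), TMCO3 (SLC9D1) and a transcript of SLC35E3. Promoter-class regions marked 48 of the 394 (12.2%, 9.12 to 15.8), a lower share than the 16.6% of all protein-coding genes, which lies above the SLC interval. Counting regions at or above their list's median tagcount, the shares were 6.85% (4.56 to 9.81) and 8.72%, and the latter was inside the interval. Enhancer-class regions marked 32 (8.12%, 5.62 to 11.3), against 7.38%. Cluster II regions marked 21 (5.33%, 3.33 to 8.03), against 7.81%, and cluster III regions 54 (13.7%, 10.5 to 17.5), against 15.5%.

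Other membrane transport genes were marked at shares whose intervals overlap that of SLC genes and hold the 22.5% of all protein-coding genes. Regions were nearest to 9 of 46 ABC transporter genes (19.6%, 9.36 to 33.9), 12 of 62 genes of P-type and V-type ATPases (19.4%, 10.4 to 31.4) and 20 of 96 potassium channel genes (20.8%, 13.2 to 30.3). Among other SLC-like carriers 6 of 26 were marked (23.1%, 8.97 to 43.6), among them XPR1, a phosphate exporter, and FLVCR1, a haem and choline carrier. None of 14 aquaporin genes was marked, which allows a share of up to 23.2%. Potassium channels had promoter-class regions at 7 genes (7.29%, 2.98 to 14.4) and enhancer-class regions at 15 (15.6%, 9.02 to 24.5). The intervals of the SLC and channel shares overlap for promoter class and for enhancer class. Over all protein-coding genes the shares were 16.6% for promoter class and 7.38% for enhancer class. The former lies above the channel interval and the latter below it, while the SLC interval for enhancer class holds the 7.38%. No allowance was made for the number of lists.

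Counted by family, without SLC7A6OS, the SLC35 nucleotide sugar family had 11 of 31 genes with a region (35.5%, 19.2 to 54.6). The SLC39 zinc importers had 5 of 14 (35.7%, 12.8 to 64.9), the SLC38 amino acid family 4 of 12 (33.3%, 9.92 to 65.1) and the SLC25 mitochondrial carriers 9 of 48 (18.8%, 8.95 to 32.6). The organic ion family SLC22 had 2 of 21 (9.52%, 1.17 to 30.4). No region was nearest to any of the 13 genes of SLC7, the cationic and large neutral amino acid family (upper limit 24.7%), the 10 SLC26 anion transporter genes (30.8%) or the 7 SLC1 glutamate and neutral amino acid transporter genes (41.0%). The 22.5% of all protein-coding genes lies inside the interval of each of these families, and no test was made between them.

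**Figure D2:**
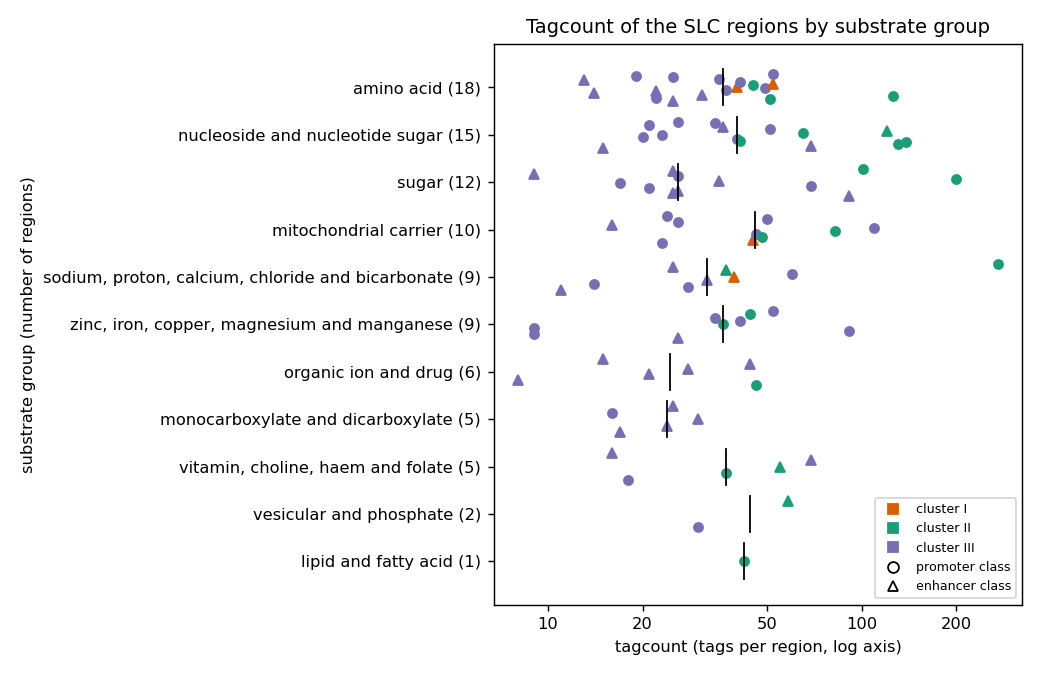
Tagcount of each SLC region (x axis, tags, log scale) by substrate group (y axis, number of regions in brackets), coloured by cluster, with circles for promoter class, triangles for enhancer class and a black bar at the median. The points at 100 tags or more are cluster II regions except SLC25A6 (109). Groups were assigned by family and not by the substrate of each gene.

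Tagcount, the number of tags that the promoter and enhancer lists give for each region, ran from 8 to 272 over the 92 SLC regions with a median of 34.5 (95% interval of the median 26 to 40), and the median over all regions was 32. The source library of this column is not stated. At the 4 SLC regions of cluster I, deposited under untreated cells, tagcount was 3 to 4 tags above the MACS tags, so it is read here as close to the untreated library. In cluster II the SLC median was 55 (44 to 120), below the 69 of all cluster II regions, a value inside the SLC interval. In cluster III the tagcount median was 26 (24 to 30) for SLC regions and 24 for all. The counts are unscaled and the depth of the libraries is unknown.

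By tagcount, the highest SLC regions were mostly in cluster II, where no region of the whole list has under 35 tags. SLC4A2, which encodes a chloride/bicarbonate exchanger, had the highest tagcount, 272, at a start (hg19, chromosome 7, 150754766 to 150755560). SLC2A3, the glucose transporter GLUT3, followed with 200 (chromosome 12, 8087880 to 8089567). SLC35B4, a nucleotide sugar carrier of the secretory pathway, had 138, and SLC29A2, an equilibrative nucleoside transporter, had 130. SLC38A7, a glutamine transporter of lysosomes, had 126. All 5 were promoter class and in start windows. SLC28A3, a concentrative nucleoside transporter, had 120 tags in an intergenic enhancer-class region 57188 bp from its start (chromosome 9, 87012562 to 87013144). SLC37A3, of the sugar phosphate family, had 101. At the low end of cluster II stood SLC31A2, of the copper transporter family (36), SLC8A2, a sodium/calcium exchanger (37), and SLC44A1, a choline transporter (37).

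Cluster II regions come as pairs of overlapping intervals, and the second interval was longer than the first at 17 of 21 SLC regions and at 84.9% of all cluster II regions. Median widths at SLC regions were 468 bp for the first and 642 bp for the second. At SLC4A2 the intervals were 795 and 935 bp and shared 788 bp. At SLC2A3 they were 1688 and 958 bp and shared 74 bp, the smallest overlap of the 21. SLCO1A2 (488 and 285 bp, 152 bp shared), SLC8A2 (405 and 361 bp) and SLC39A3 (468 and 427 bp) were the others with a shorter second interval.

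Cluster I, found under untreated cells, held 4 SLC regions, none of them promoter class (0%, 0 to 60.2), against 12.4% of all 202 cluster I regions. All 4 were thus enhancer class, as was most of the cluster. They lay 845 bp from a start of SLC6A12, a betaine and GABA transporter (40 tagcount, 37 MACS tags, chromosome 12, 320966 to 321477), and in an intron of SLC6A6, the taurine transporter (52 and 49, chromosome 3, 14448286 to 14448765). The other two were in an intron of SLC25A13, a mitochondrial aspartate/glutamate carrier (45 and 41), and in an intron of SLC8B1, a mitochondrial sodium/calcium exchanger (39 and 36). Their tagcount values, 39 to 52, were within the range of cluster I as a whole, 35 to 142, around its median of 43.

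**Figure D3:**
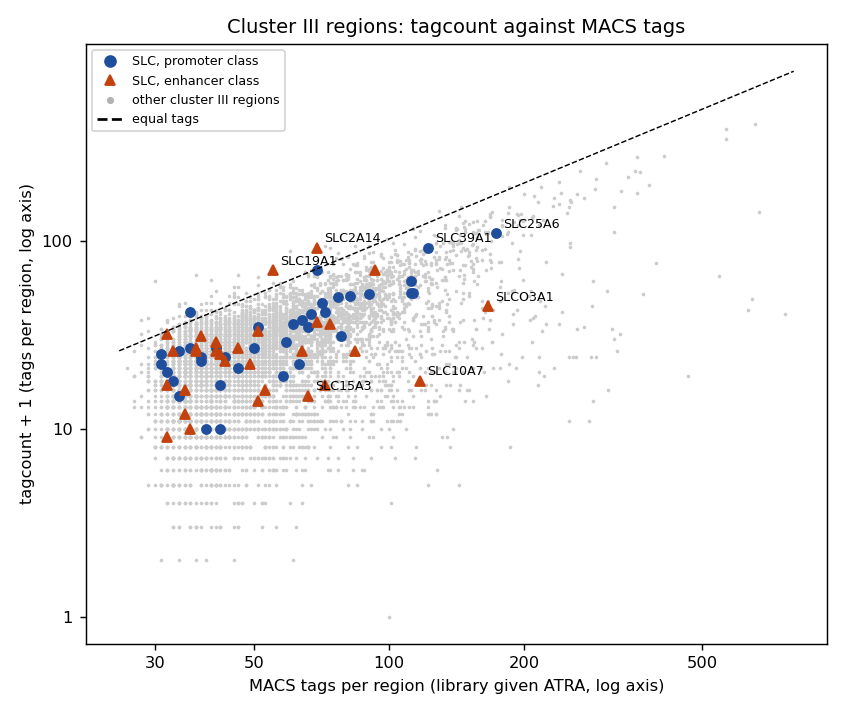
Tagcount + 1 (y axis, tags, log scale) against MACS tags (x axis, tags in the treated library, log scale) for cluster III regions. Blue circles are the 37 promoter-class and orange triangles the 30 enhancer-class SLC regions, grey dots the other cluster III regions, and the dashed line marks equal tags. SLC10A7 and SLCO3A1 lie far below the line and SLC2A14 and SLC19A1 above it.

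In cluster III each region has MACS tags from the treated library beside tagcount. MACS tags at the 67 SLC regions ran from 31 to 173 with a median of 51 (42 to 63), and the median over all cluster III regions was 50. SLC25A6, an ADP/ATP carrier of the inner mitochondrial membrane in the pseudoautosomal part of chromosome X, had the most, 173, beside 109 tagcount (chromosome X, 1510268 to 1511936). SLCO3A1, an organic anion transporter, had 166 at an enhancer-class region in a start window (chromosome 15, 92483927 to 92484781). SLC39A1, a zinc importer, had 122, SLC10A7, of the bile acid transporter family, 117, and SLC39A7, a zinc transporter of the endoplasmic reticulum, 113. SLC7A6OS had 112. SLC35F6 (93), SLC35E2 (90) and SLC45A3, a sugar transporter family member known from prostate (84), were also among the 10 highest.

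The ratio of tagcount to MACS tags showed how unevenly the 2 columns fell at SLC regions. The median was 0.565 (0.5 to 0.597) for SLC regions of cluster III and 0.486 for all of cluster III, which lies below that interval. Among regions at or above their list's median tagcount the medians were 0.627 and 0.625, and the background lay inside the interval within 5 kb of a start, with 1 region per gene, with strict names and among wide regions. Within promoter class the median was 0.574 (0.515 to 0.610) against 0.565. Within enhancer class it was 0.506 (0.314 to 0.627) against 0.377, a value inside the interval. A higher share of SLC regions was promoter class in cluster III, 37 of 67 (55.2%, 42.6 to 67.4), against 41.5% of all cluster III regions, and its part in the difference of the medians was not tested. Since neither column is scaled to depth, a ratio has meaning only beside the other regions of the cluster.

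At the low end, SLC10A7 had 17 tagcount and 117 MACS tags, a ratio of 0.145 (exact 95% interval 0.0819 to 0.243), in an intron 122343 bp from the named start (chromosome 4, 147302349 to 147303038). SLC15A3, a peptide and histidine transporter of lysosomes, had 14 and 66, a ratio of 0.212 (0.110 to 0.382). The neighbouring SLC30A1 regions had 9 and 42 (0.214) and 9 and 39 (0.231). SLC30A1 encodes a zinc exporter of the plasma membrane. SLC52A3, a riboflavin transporter, had 16 and 72 (0.222) at an intergenic region. These are the 5 lowest ratios, and the upper bound of each interval lies below the cluster median. They were picked from the 67 by this same ratio, so their intervals are no test against that median. Ratios under 0.25 were found at 5 of 67 SLC regions (7.46%, 2.47 to 16.6), against 17.0% of cluster III, just above the interval. This count depends on the cut, since regions of SLC22A8 and SLC37A3 had ratios of exactly 0.25 and were left out. The share with them counted was not computed.

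At the high end, SLC2A14, a glucose transporter gene, had 91 tagcount and 69 MACS tags, a ratio of 1.32 (0.954 to 1.83). SLC19A1, the reduced folate carrier, had 69 and 55, a ratio of 1.25 (0.868 to 1.82). SLC15A1, an intestinal peptide transporter, had 41 and 36, SLC2A3 had 69 and 69 in an exon, and SLC6A6 had 31 and 32 in an intron. Tagcount reached the MACS tags at 4 SLC regions (5.97%, 1.65 to 14.6), against 1.64% of cluster III, which lies barely below that interval. SLC2A3 was counted through equal tags alone, and the share without it was not computed. SLC2A3 and SLC2A14 are near-identical neighbours on chromosome 12, so reads could be divided between them, and no source used here states how such reads were handled.

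**Figure D4:**
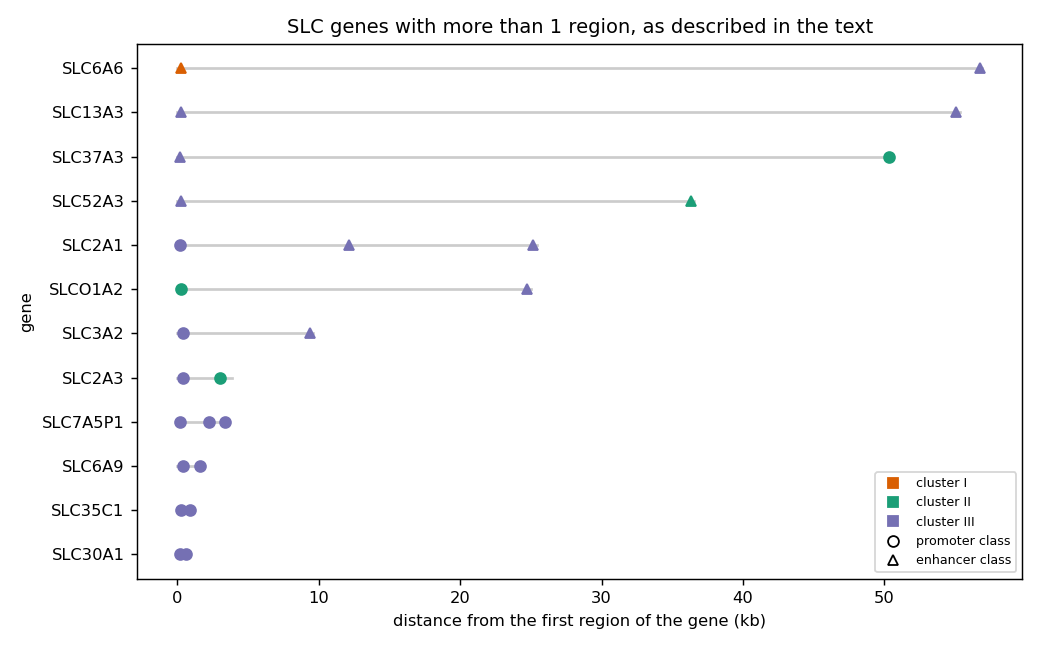
Regions of the SLC genes with more than 1 region that are described in the text, placed by distance in kb from the first base of the gene's first region (x axis) for each gene (y axis), coloured by cluster, with circles for promoter class and triangles for enhancer class. Of the genes drawn, SLC6A6, SLC13A3 and SLC37A3 span most distance and SLC30A1 and SLC35C1 least.

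Of the 74 names, 58 had 1 region, 14 had 2, and SLC2A1 and SLC7A5P1 had 3. More than 1 region was thus found at 16 (21.6%, 12.9 to 32.7), against 18.1% of all names. SLC2A1, the glucose transporter GLUT1, had 41, 74 and 46 MACS tags in cluster III across chromosome 1, 43390047 to 43415454, the first in an intergenic promoter-class region and the others in introns. SLC7A5P1, a pseudogene copy of the SLC7A5 amino acid transporter gene, had 34, 61 and 38 on chromosome 16. Reads of a copy and its source gene can be confused. SLC30A1 regions were 9 bp apart, SLC35C1 regions (a GDP-fucose carrier, 43 and 46 MACS tags) 248 bp, and SLC6A9 regions (the glycine transporter GLYT1, 77 and 32) 570 bp. Each of these close pairs was listed as separate regions of 1 class and 1 cluster.

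Regions of more than 1 cluster were nearest to 5 of 74 names (6.76%, 2.23 to 15.1). The same share over all names was not computed, so whether this is usual cannot be told. SLC2A3 had a cluster II region at its start and a cluster III region 1393 bp away, and SLC37A3 had 101 tagcount in cluster II and 9 in an enhancer-class cluster III region 49782 bp away. SLCO1A2, an organic anion transporter, had 46 tagcount in cluster II and 28 in cluster III. SLC52A3 had 55 in cluster II and 16 in cluster III, and SLC6A6 52 in cluster I and 31 in cluster III. In each of the 5 the cluster III region had the lower tagcount, and the other clusters hold no region under 35 tags.

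Substrate groups were assigned by family and not by the substrate of each gene, so single members may carry something else. Amino acid carriers, without the pseudogenes and SLC7A6OS, held 13 regions at 10 names. SLC38A2, a sodium-coupled neutral amino acid transporter, had 51 tagcount in cluster II, and SLC38A9, the lysosomal arginine sensor that acts on mTORC1, had 45. SLC3A2, the heavy chain of the CD98 transporters, had 64 MACS tags at its start and 43 at an enhancer-class region 2324 bp from a start. The nucleoside and nucleotide sugar genes held 15 regions, 11 of them promoter class (73.3%, 44.9 to 92.2), and the SLC25 mitochondrial carriers 9, of which 8 were promoter class (88.9%, 51.8 to 99.7), beside 48.0% of all regions. SLC25A51, a mitochondrial NAD carrier, had 82 MACS tags, and SLC25A53 had 82 tagcount in cluster II.

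Zinc and other metal genes held 9 regions, 8 of them promoter class (88.9%, 51.8 to 99.7), against 48.0% of all regions. The 8 include both SLC30A1 regions, which lie 9 bp apart and are not independent. By gene, 7 of the 8 with a region had a promoter-class one. Among all protein-coding genes, 4505 had a region and 3335 a promoter-class one. Most genes with a region thus had a promoter-class one, and the 48.0% of regions is no background for the count by gene. No allowance was made for the number of substrate groups looked at. Besides SLC39A1 and SLC39A7 the metal genes included SLC39A9 (72 MACS tags), SLC39A13 (66) and SLC39A3 (44 tagcount in cluster II). Enhancer class were 5 of 6 regions of organic ion carriers (83.3%, 35.9 to 99.6) and 4 of 5 of the monocarboxylate, dicarboxylate and bile acid carriers (80.0%, 28.4 to 99.5), against 52.0% of all regions, inside both intervals. Among them were SLC22A8, a renal organic anion transporter (8 tagcount, the lowest of all 92), and SLC13A3, a dicarboxylate transporter (30 and 24). SLC16A1, the lactate transporter MCT1, had a promoter-class region with 16 tagcount and 42 MACS tags. SLC16A8, another lactate transporter, had 25 and 37 at an enhancer-class region. Among vitamin carriers SLC19A2, a thiamine transporter, had 58 MACS tags at its start. SLC27A4, a fatty acid transport protein, had 42 tagcount in cluster II, SLC17A7, a vesicular glutamate transporter, 58, and SLC33A1, an acetyl-CoA transporter of the endoplasmic reticulum, 30 tagcount and 78 MACS tags.

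By place in the genome, 22 of 92 SLC regions were on chromosome 1 (23.9%, 15.6 to 33.9), against 18.5% of all regions, and 9 on chromosome 12 (9.78%, 4.57 to 17.8), against 11.7%. Another region lay within 5 kb of 15 SLC regions (16.3%, 9.42 to 25.5), against 22.1%.

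The sequence of SLC promoters was then set beside the mark, a property that did not enter the choice of members. At the canonical start of each gene in GENCODE 44, on hg38, SLC genes with a promoter-class region had a median observed to expected CpG ratio of 0.880 (0.786 to 0.912, 46 genes), and SLC genes with no region had 0.740 (0.701 to 0.770, 309 genes). All protein-coding genes showed medians of 0.868 with a promoter-class region and 0.746 with no region of either class. Genes were labelled by name, and the region was not required to lie at the canonical start. The promoter-class region of SLC2A1 lay 6607 bp from its named start. SLC4A2 held 32 CG and GGGCGG at its canonical start, unlike the start the authors named. SLC2A3 (8 CG) and SLCO1A2 (0 CG) were CpG-poor among the 46, and SLC25A10, a mitochondrial dicarboxylate carrier, had the most CG (48).

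GGGCGG was found in 40 of the 46 (87.0%, 73.7 to 95.1), in 59.5% (53.8 to 65.1) of SLC promoters with no region and in 62.1% of all protein-coding promoters of the same length. It was in 70.0% of all protein-coding promoters with a promoter-class region, below the SLC interval. Median GC content was 67% (64 to 71) at the 46 and 64.3% at all those with a promoter-class region. The part of GC content in the GGGCGG difference was not tested, and no allowance was made for the number of motifs. For the other motifs the shares of all protein-coding promoters and of those with a promoter-class region follow the SLC share in that order. CCAAT was in 17 of 46 (37.0%, 23.2 to 52.5), with 36.1% and 35.8%. TATAAA was in 2 (4.35%, 0.531 to 14.8; SLC2A1 and SLC2A3, named after their values were seen), with 9.57% and 5.79%. CACGTG was in 9 (19.6%, 9.36 to 33.9), with 8.79% and 10.8%, the latter inside the SLC interval. TGACG was in 16 (34.8%, 21.4 to 50.2), with 29.4% and 38.1%. TGCGCA was in 2 (SLC25A3 and SLC35A5, 4.35%, 0.531 to 14.8), with 10.9% and 15.0%, the latter just above the interval. Both strands were searched, and no motif contains another.

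A diverging protein-coding start within 1 kb on the other strand was found at 4 of the 46 genes (8.70%, 2.42 to 20.8), against 14.6% of all protein-coding genes with a promoter-class region. The pairs were SLC39A7 with RXRB, a retinoid X receptor gene, SLC7A6OS with PRMT7, an arginine methyltransferase gene, SLC35A5 with ATG3, an autophagy enzyme gene, and SLC39A9 with ERH. The authors name the nearest transcript, so a region between such starts is listed under 1 gene, and which of the pair it belongs to cannot be told apart.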

How the data were processed

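H3R2me2a regions of 2 libraries of NT2/D1 control cells (untreated, and 1 µM ATRA for 3 days) were used. Tools were bcl2fastq, Bowtie2, MACS 1.4 and deepTools on hg19, with no role or order given, per the submitters' processing notes. Values are whole-number counts that the authors deposited without scaling, named MACS tags in clusters I and III and tagcount in the promoter and enhancer lists. Peak-calling control and depth are not given in the sources. Widths, summits and distances are the authors' own.

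Promoter and enhancer regions were joined to clusters on chromosome, start and stop (pandas 2.3.3). Shares have exact Clopper-Pearson 95% intervals (scipy 1.17.1), medians order-statistic intervals and tag ratios exact conditional binomial intervals, all for counting error only. Names were matched to RefSeq and GENCODE 44 by transcript, then symbol, with 77 of 87 member transcripts found. Canonical promoters existed for 380 of 394 SLC genes. Members, lists and the naming rule (genes with most regions per group, highest tags, extreme ratios, cluster I, several clusters) were chosen with earlier results of these data known. SLC25A3, SLC25A10, SLC31A2, SLC35A5, SLC38A2, SLC38A9, SLC39A9, SLC39A13, XPR1 and FLVCR1 were named outside the rule, after their values were seen, and some SLC genes and 1 of the motifs searched are not reported here. Interval and name functions were tested on simulated data. Alternatives were stricter tags, width, distance, chromosome, counting unit, names and joins.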

Additional observations from a re-analysis of the deposited data

How the results depend on the processing

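Of 65 alternative values for 10 results, 51 stayed inside the interval of the reported value and 14 did not. The share of SLC genes with a promoter-class region was added to this comparison after the data were seen. Keeping regions whose tagcount reached the median of their list (54 SLC regions), cluster II held 35.2% and cluster III 57.4% of SLC regions (44.4% and 51.2% of all), the median tagcount was 46, the median MACS tags 69, the median tag ratio 0.627, the share of SLC genes with a region 11.7% and with a promoter-class region 6.85%. Keeping regions of at least the median width, the share in cluster I was 0% (0 of 41), the median tagcount 44, the median MACS tags 71, the share of SLC genes with a region 9.14% and with a promoter-class region 6.09%. Keeping regions within 5 kb of the named start, the promoter share was 75.7% and the share within 1 kb 81.4%. Each of these 3 settings keeps fewer regions by construction. Leaving out chromosome 12, counting 1 region per gene, strict names, placed regions and both overlap joins kept each value computed inside its interval (the joins were run for the cluster shares, placed regions for the share of SLC genes with a region, and 1 region per gene for all but the gene shares). The share of all regions within 1 kb was inside the SLC interval without chromosome 12, with 1 region per gene, at higher tagcount, within 5 kb and at greater width. The promoter-class gene share stayed below that of all protein-coding genes, beyond its interval, in the reported value and in 4 of its 5 alternatives, the exception being the higher tagcount. No paired analysis was possible because there is 1 library per condition. Unknown depth limits every comparison between the tag columns.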
